A study of Mus musculus with 97 samples.

Results

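Lysosomes are the acidic organelles in which cells break down protein, glycans and lipids, and the 35 genes described here encode their hydrolases, membrane proteins, proton pump subunits and associated regulators. The genes were taken by name from a list of lysosomal genes drawn up with earlier results of these data known, and each of the 35 was found once among the 20457 genes of the table. All 35 stood above 1 TPM in every library, and all 35 were among the 17083 genes that passed the filter on low values and were tested.

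Lysosomal hydrolases are made in the endoplasmic reticulum, mostly tagged with mannose 6-phosphate in the Golgi, and delivered to an organelle that a vacuolar proton pump keeps acidic. Many of their genes carry a short palindromic element near the start site that is bound by TFEB, a transcription factor that moves to the nucleus when mTORC1 at the lysosomal surface is inactive. Aminoglycosides such as neomycin are cationic drugs that cells take up by endocytosis and that collect in lysosomes, a property best known from the kidney proximal tubule.

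Whole colons of wild-type C57BL6/J mice aged 8 to 12 weeks were profiled by bulk RNA sequencing in 97 libraries. Each mouse received 2.5 mg of ampicillin, metronidazole, neomycin or vancomycin, or a mix of these 4 drugs, in 100 µl of PBS, or PBS alone. The drug or PBS was given by gavage (PO), intraperitoneally (IP) or intravenously (IV). Dosing was 2 times daily over 3 days with 1 more dose on day 4, and colons were collected 4 hours later. The 18 groups, named by drug and route as in Mix-PO, held 4 to 6 libraries each, and the control of each was the PBS group of the same route, so that the 5 treatments of a route share their control libraries. The labels number the libraries as replicates without naming the animals, so the p-values rest on the spread from library to library, which may be partly technical.

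The promoters of 31 of the 35 genes were found in the RefSeq promoter table of the mouse assembly GRCm38.p6, as windows from 250 bases before to 50 bases after each start; Ctsb, Ctsh, Asah1 and Atp6v1h are named only. Stretches of 80 bases are shown for 6 genes whose window holds the core of the TFEB element. They are also shown for Slc17a5 and Smpd1, whose windows do not hold it and which differed between treatments in the results below. Atp6v1a, Mcoln1 and Gla, which are among the 6, differed as well. Letters run 5′ to 3′ on the strand of the gene, and capitals mark each CACGTG, which reads the same on both strands.
Lamp1, chr8:13159081-13159160, plus strand: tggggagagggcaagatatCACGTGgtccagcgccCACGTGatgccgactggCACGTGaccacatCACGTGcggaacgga
Mcoln1, chr8:3500419-3500498, plus strand: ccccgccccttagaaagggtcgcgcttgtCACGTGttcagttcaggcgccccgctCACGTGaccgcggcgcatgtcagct
Ctsa, chr2:164833693-164833772, plus strand: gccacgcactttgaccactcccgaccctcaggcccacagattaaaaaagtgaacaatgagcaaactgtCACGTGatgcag
Ctsd, chr7:142387868-142387947, minus strand: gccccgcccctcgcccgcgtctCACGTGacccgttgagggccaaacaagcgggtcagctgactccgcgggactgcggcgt
Gla, chrX:134601176-134601255, minus strand: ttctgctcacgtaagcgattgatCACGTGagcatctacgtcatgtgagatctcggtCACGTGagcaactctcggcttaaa
Atp6v1a, chr16:44139350-44139429, minus strand: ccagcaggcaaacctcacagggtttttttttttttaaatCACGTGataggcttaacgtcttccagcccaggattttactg
Slc17a5, chr9:78588046-78588125, minus strand: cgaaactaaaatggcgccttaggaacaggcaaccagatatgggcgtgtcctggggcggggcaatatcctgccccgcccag
Smpd1, chr7:105554280-105554359, plus strand: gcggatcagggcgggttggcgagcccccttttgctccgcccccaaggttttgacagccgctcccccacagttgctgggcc

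The 6 letters CACGTG occurred in the windows of 13 of the 31 matched genes, or 41.9%, and in 8.09% of all 27025 genes with a window. The 8 letters TCACGTGA, which contain them, occurred in 6 of the 31 genes, or 19.4%, against 1.125% of all genes; the 6 were Atp6v0d1, Atp6v1a, Ctsa, Ctsd, Gla and Mcoln1. The CLEAR palindrome of 10 letters, which extends these 8 by 1 base at each end, occurred in 0 of the 31 windows and in 0.37% of all genes. The Lamp1 window held 4 copies of CACGTG, the highest count among the 31 genes, and the windows of Slc17a5 and Smpd1 held 0. A match describes these letters only and is not a measured binding site.

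Levels were compared between genes in TPM, which is scaled to transcript length. Psap, which encodes the precursor of the saposin activators of sphingolipid breakdown, had the highest mean at 735.7 TPM, and its libraries ran from 447.9 to 1138 TPM. The cysteine protease cathepsin B (Ctsb) followed at a mean of 442.7 TPM and the membrane glycoprotein Lamp1 at 369.3 TPM. The sialidase Neu1 averaged 273.0 TPM but ran from 28.4 to 934.1 TPM, and cathepsin S (Ctss), which trims the invariant chain of MHC class II, averaged 258.3 TPM and ran from 25.9 to 582.7 TPM. The lowest mean was that of Gla, alpha-galactosidase A, at 11.1 TPM. The cathepsins and other proteases together made up 37.1% of the members' summed TPM, the lipid and sulfate hydrolases 22.5%, the membrane proteins 16.4% and the glycosidases 15.1%. The summed level of all 35 genes ran from 3141 to 5714 TPM over the libraries, with a median of 4209 TPM or 0.421% of all TPM.

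**Figure D1:**
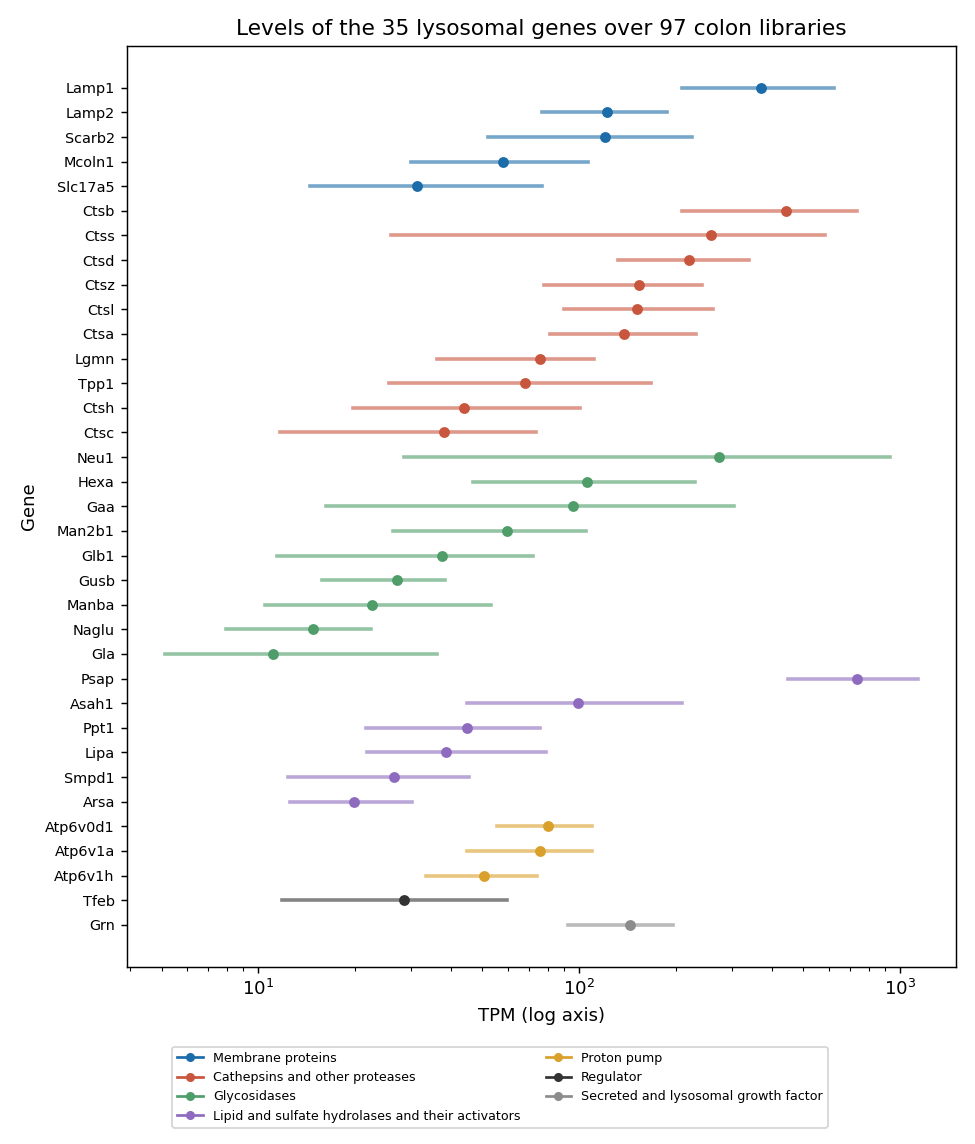
Mean TPM (points) and range over 97 libraries (lines) of the 35 genes on a log axis, grouped and coloured by role. Psap lies highest at a mean of 735.7 TPM and Gla lowest at 11.1 TPM, and the widest ranges are those of Neu1 (28.4 to 934.1 TPM), Ctss (25.9 to 582.7 TPM) and Gaa (16.2 to 303.1 TPM).

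The genes differed in how steady they were between libraries of the same group. The SD of log2(TPM + 1) within groups had a median of 0.35 over the 35 genes and of 0.44 over all genes tested. It was lowest for the proton pump subunit Atp6v1h at 0.19 and for the growth factor progranulin (Grn) at 0.20, and highest for Neu1 at 0.97, Ctss at 0.89 and the acid alpha-glucosidase Gaa at 0.85. All markers of smooth muscle (18 genes) and of colonocytes (15 genes) were detected in every group, as a whole colon wall should give, but their balance varied widely between libraries. Averaged over the list as log2(TPM + 1), the smooth muscle markers ran from 7.44 to 11.75 and the colonocyte markers from 6.17 to 10.81. In bulk tissue, fewer cells of a type and less RNA per cell cannot be told apart. The last 12 columns of the table stand outside its otherwise alphabetical order for a reason the labels do not give; they are 2 of 4 PBS-IP, 2 of 5 PBS-IV, 3 of 4 Vancomycin-IP, 2 of 5 Vancomycin-IV and 3 of 6 Vancomycin-PO libraries, and the effect of leaving them out is given with the results.

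Against PBS of the same route, called genes (limma, Benjamini-Hochberg adjusted p under 0.05 over all 17083 genes) were found among the 35 in 2 of 15 groups. In Vancomycin-IP 8 of 35 were called, where 19.0% of all genes were. In Mix-PO 1 of 35 was called, where 0.252% of all genes were. In the other 13 groups limma called 0 of the 35. The share of all genes called in these groups was 0% in Metronidazole-PO, Metronidazole-IP, Metronidazole-IV and Mix-IV, 0.0176% in Neomycin-PO, 0.0702% in Ampicillin-PO, 0.0820% in Ampicillin-IV, 0.176% in Vancomycin-PO, 0.258% in Vancomycin-IV, 0.275% in Mix-IP, 0.492% in Ampicillin-IP, 0.544% in Neomycin-IV and 0.603% in Neomycin-IP.

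At an unadjusted p under 0.05, limma placed 7 of the 35 genes in Ampicillin-PO (15.9% of all genes), 10 in Ampicillin-IP (9.86%), 3 in Ampicillin-IV (6.29%), 1 in Metronidazole-PO (3.25%), 7 in Metronidazole-IP (7.15%) and 0 in Metronidazole-IV (1.48%). The counts were 2 in Neomycin-PO (5.35%), 3 in Neomycin-IP (5.81%), 1 in Neomycin-IV (7.24%), 1 in Vancomycin-PO (6.05%), 8 in Vancomycin-IV (13.6%), 7 in Mix-IP (14.6%) and 2 in Mix-IV (5.60%). As shares of the 35 genes the counts of these 13 groups run from 0% to 28.6%, with the highest of the 13 in Ampicillin-IP.

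Averaging the differences over the 3 routes, 7 of 35 genes were called for ampicillin (all genes, 7.88%), 11 for vancomycin (26.0%) and 5 for the mix (7.96%). For metronidazole limma called 0 (0.398%), with 6 at an unadjusted p under 0.05 (9.48%), and for neomycin 0 (2.34%), also with 6 (11.7%). The median difference of the 35 genes, on the log2(TPM + 1) scale, was 0.11 for ampicillin, 0.04 for metronidazole, 0.13 for neomycin, 0.09 for vancomycin and 0.15 for the mix, against 0.07, 0.04, 0.04, 0.05 and 0.02 for all genes.

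**Figure D2:**
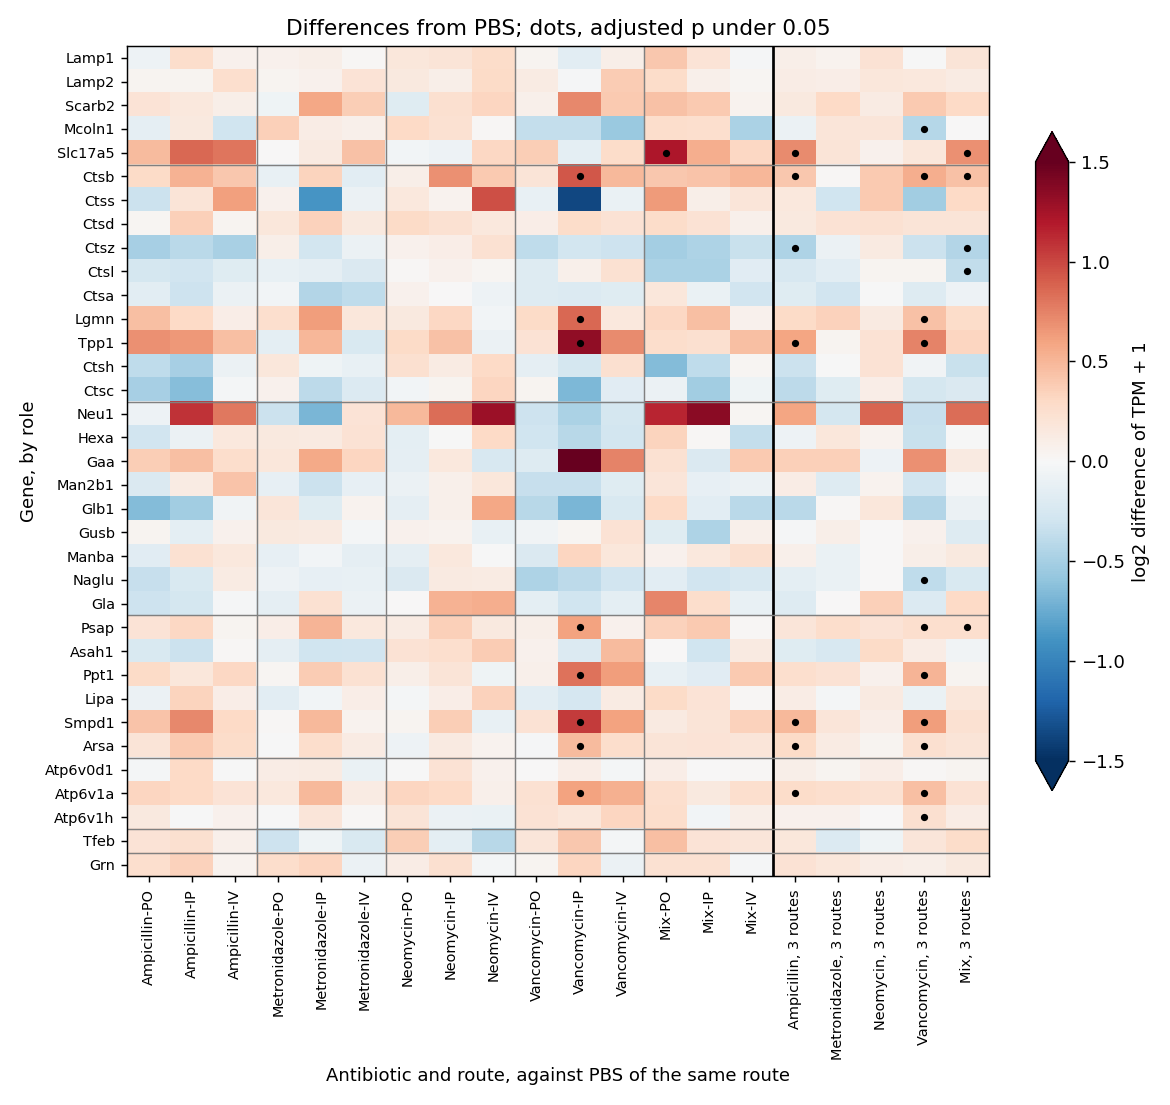
Log2 differences of TPM + 1 from PBS of the same route for the 35 genes (rows, by role) in 15 groups and, right of the black line, averaged over the 3 routes for 5 treatments; dots mark an adjusted p under 0.05. Dots stand in 8 of the 35 rows of Vancomycin-IP, where 19.0% of all genes were called, and in Slc17a5 of Mix-PO (all genes, 0.252%). In the averages dots stand in 7 rows for ampicillin (all genes, 7.88%), 11 for vancomycin (26.0%) and 5 for the mix (7.96%). Colours stop at 1.5, which Gaa in Vancomycin-IP exceeds at 1.52.

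Among the 5 membrane proteins, Slc17a5 and Mcoln1 were called. Slc17a5 encodes sialin, the exporter of sialic acid and other acidic sugars from the lysosome. Its TPM in PBS-PO ran from 19.4 through a median of 23.8 to 30.7, and in Mix-PO from 37.4 through 60.3 to 66.9. Every Mix-PO library lay above every PBS-PO library. The difference was 1.21 on the log2 scale (SE 0.24, 95% interval 0.74 to 1.68), a 2.32-fold rise with an adjusted p of 0.0148 (limma). Averaged over the routes, Slc17a5 rose by 0.71 with ampicillin (SE 0.14, adjusted p = 0.000634) and by 0.69 with the mix (SE 0.14, adjusted p = 0.00106).

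The ampicillin libraries of Slc17a5 were spread more widely than the controls. Ampicillin-IP ran from 28.7 through 44.4 to 60.2 TPM, wholly above the 4 PBS-IP libraries at 23.5, 23.5, 22.4 and 24.8 TPM. Ampicillin-PO ran from 19.4 through 28.4 to 76.9 TPM and overlapped PBS-PO, and Ampicillin-IV ran from 22.9 through 34.0 to 73.8 TPM and overlapped PBS-IV, whose 5 libraries stood at 22.3, 21.4, 27.3, 15.5 and 22.7 TPM. The single-route differences were 0.86 (SE 0.26, adjusted p = 0.110) for Ampicillin-IP and 0.80 (SE 0.25, adjusted p = 0.306) for Ampicillin-IV. In Mix-IP the range was 23.3 to 46.3 TPM and in Mix-IV 14.6 to 39.5 TPM. Mean levels of Slc17a5 with neomycin (22.4 to 27.6 TPM by route) lay close to those with PBS (21.9 to 24.2 TPM), and the averaged difference for neomycin was 0.07 with a 95% interval of -0.22 to 0.36. For metronidazole it was 0.19 (interval -0.11 to 0.50) and for vancomycin 0.17 (interval -0.13 to 0.47).

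In Mix-PO the 5 distal Hox genes, which mark the position along the colon, had a median difference of -2.24 with 0 of 5 called, and Slc17a5 ran against their score within groups (Pearson r = -0.57, Spearman rho = -0.58, 97 libraries, permutation p = 1e-05, the smallest that 100000 resamples can give; r = -0.56 without the 2 most extreme libraries and -0.57 without the 12 last columns). With the smooth muscle and distal Hox scores as covariates, Slc17a5 was called higher in Mix-PO (0.97, adjusted p = 0.00399) and in the averages for ampicillin (0.76, adjusted p = 8.45e-07) and the mix (0.55, adjusted p = 0.00058). The colonocyte score, with which Slc17a5 also correlated (r = 0.47, rho = 0.39), was in no fit. The part of colon position and cell balance in these calls was not tested further. The averages of Slc17a5 for ampicillin and the mix were also called without the 12 last columns, at 0.76 and 0.73. The Mix-PO call was lost under quantile normalization (1.11, adjusted p = 0.0532) and without Mix-PO replicate 3 or 4 (adjusted p up to 0.0702).

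**Figure D3:**
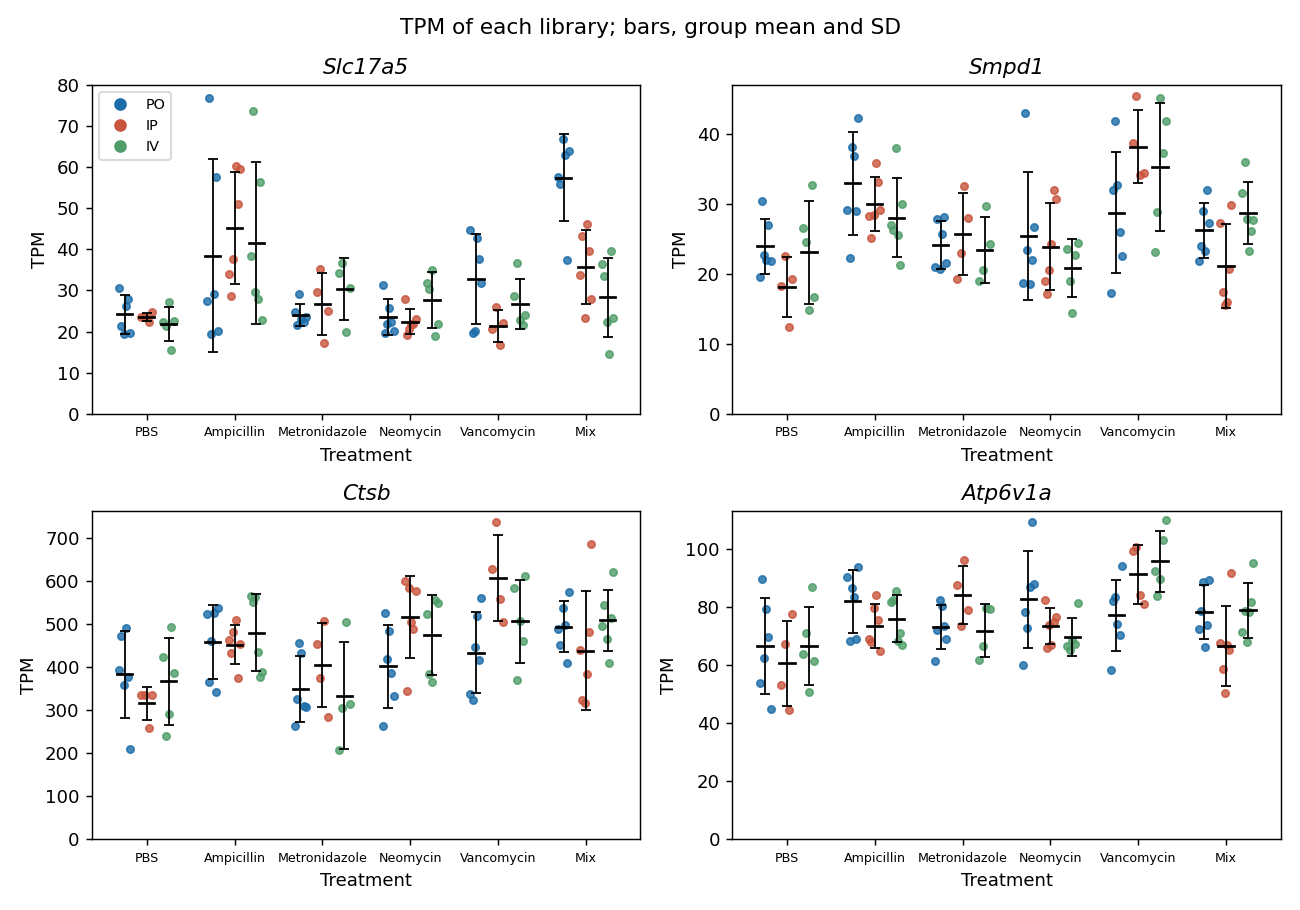
TPM of every library for Slc17a5, Smpd1, Ctsb and Atp6v1a by treatment and route (colours); horizontal bars are group means and whiskers the SD of 4 to 6 libraries. Mix-PO lies wholly above PBS-PO for Slc17a5 (37.4 to 66.9 against 19.4 to 30.7 TPM), and Vancomycin-IP wholly above PBS-IP for Smpd1 (34.1 to 45.4 against 12.4 to 22.6 TPM).

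Of the other membrane proteins, Mcoln1, which encodes the TRPML1 calcium channel, fell by 0.42 with vancomycin averaged over the routes (SE 0.14, adjusted p = 0.0205), and was not called without the 12 last columns (-0.30, adjusted p = 0.330). Its mean was 57.5 TPM with PBS and 42.2 TPM with vancomycin. Lamp1 and Lamp2, the abundant glycoproteins that line the limiting membrane, and Scarb2, the receptor that delivers beta-glucocerebrosidase, were called in none of the 15 groups or 5 averages. Scarb2 had group means from 85.0 TPM in PBS-IP to 149.7 TPM in Mix-PO, and Lamp1 from 314.1 TPM in Vancomycin-IP to 450.2 TPM in Mix-PO.

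Among the 10 proteases, Ctsb was called in 3 of the 5 averages. Cathepsin B is a cysteine protease that in the gut wall is made by macrophages and many other cells. The 4 PBS-IP libraries stood at 335.3, 336.5, 258.7 and 335.4 TPM and the 4 Vancomycin-IP libraries at 627.5, 737.5, 559.7 and 506.3 TPM, so that the groups did not overlap. The difference was 0.93 (SE 0.23, adjusted p = 0.00865). Averaged over the routes Ctsb rose by 0.54 with vancomycin (adjusted p = 0.00114), by 0.44 with the mix (adjusted p = 0.00902) and by 0.40 with ampicillin (adjusted p = 0.0172). With neomycin the averaged difference was 0.39 (SE 0.12, adjusted p = 0.0520), from a mean of 356.0 TPM with PBS to 465.1 TPM, and with metronidazole Ctsb was not called. All 5 averages share the PBS libraries. Without the 12 last columns the averages for vancomycin, the mix and ampicillin had adjusted p of 0.0619, 0.0699 and 0.149, at differences of 0.54, 0.40 and 0.36.

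Tpp1, the tripeptidyl peptidase whose loss causes a childhood ceroid lipofuscinosis in people, rose in Vancomycin-IP by 1.33 (SE 0.35, adjusted p = 0.0116). The 4 PBS-IP libraries stood at 44.6, 47.4, 37.2 and 38.6 TPM and the 4 Vancomycin-IP libraries at 128.0, 137.8, 105.7 and 67.8 TPM. Every Vancomycin-IP library was above every PBS-IP library. The asparaginyl endopeptidase Lgmn, which activates other lysosomal proteases, rose there by 0.86 (SE 0.24, adjusted p = 0.0167), from a mean of 52.6 to 94.7 TPM. Averaged over the routes, Tpp1 rose by 0.75 and Lgmn by 0.44 with vancomycin, and Tpp1 rose by 0.60 with ampicillin (SE 0.17, adjusted p = 0.0200). Without the 12 last columns the vancomycin average of Tpp1 was still called (0.95, adjusted p = 0.0285). Not called were that of Lgmn (0.54, adjusted p = 0.0660) and the ampicillin average of Tpp1 (0.50, adjusted p = 0.142).

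Ctsz and Ctsl moved the other way. Ctsz encodes the carboxypeptidase cathepsin Z, and it fell by 0.46 with ampicillin (SE 0.13, adjusted p = 0.0157) and by 0.44 with the mix (SE 0.13, adjusted p = 0.0252). Its mean was 177.9 TPM with PBS, 126.4 TPM with ampicillin and 128.6 TPM with the mix. Ampicillin-IV ran from 83.1 through 110.2 to 166.7 TPM and overlapped PBS-IV at 144.9, 175.9, 210.6, 81.6 and 241.1 TPM. Cathepsin L (Ctsl), an endopeptidase, fell by 0.37 with the mix (SE 0.12, adjusted p = 0.0401), from a mean of 164.0 to 127.8 TPM. None of these falls was called without the 12 last columns (Ctsz adjusted p = 0.232 for ampicillin and 0.219 for the mix, Ctsl adjusted p = 0.131). The call of Ctsl was also lost in 17 of 33 fits that left out 1 library (adjusted p up to 0.0941). Ctss, Ctsc, Ctsd, Ctsa and Ctsh were called in none of the 15 groups or 5 averages; Ctsd, the main aspartic protease, had group means from 186.4 to 243.4 TPM.

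Of the 9 glycosidases, Naglu was called. It encodes the enzyme that removes N-acetylglucosamine from heparan sulfate, and it fell by 0.38 with vancomycin averaged over the routes (SE 0.11, adjusted p = 0.0122), from a mean of 16.5 to 12.5 TPM; it was not called without the 12 last columns (-0.31, adjusted p = 0.181). Of the 3 largest single-group differences of the 35 genes from PBS, 2 belonged to other glycosidases and 1 to Ctss (-1.37 in Vancomycin-IP, adjusted p = 0.0987), and none was called. Gaa, which digests glycogen, was 1.52 higher in Vancomycin-IP (SE 0.59, adjusted p = 0.0578), and Neu1, which removes terminal sialic acid, was 1.36 higher in Mix-IP (SE 0.62, adjusted p = 0.283). The 6 Mix-IP libraries of Neu1 ran from 187.8 through 488.0 to 764.0 TPM and overlapped the 4 PBS-IP libraries at 153.2, 120.9, 311.5 and 146.7 TPM.

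Smpd1 led the 6 lipid and sulfate hydrolases and activators. It encodes acid sphingomyelinase, which turns sphingomyelin into ceramide. The 4 PBS-IP libraries stood at 18.3, 22.6, 12.4 and 19.3 TPM and the 4 Vancomycin-IP libraries at 38.7, 45.4, 34.1 and 34.4 TPM. The groups did not overlap, and the difference was 1.05 (SE 0.23, 95% interval 0.60 to 1.5, adjusted p = 0.00367). Averaged over the routes, Smpd1 rose by 0.63 with vancomycin (adjusted p = 0.000202) and by 0.48 with ampicillin (adjusted p = 0.00324). Psap rose by 0.60 in Vancomycin-IP (SE 0.17, adjusted p = 0.0167), from a mean of 557.5 to 839.7 TPM, and by 0.25 in the averages for vancomycin and for the mix. Ppt1, a palmitoyl-protein thioesterase, rose in Vancomycin-IP by 0.82 (SE 0.24, adjusted p = 0.0212), and Arsa, which removes sulfate from sulfatides, by 0.47 (SE 0.17, adjusted p = 0.0457). Arsa also rose by 0.29 in the average for ampicillin and by 0.24 in that for vancomycin. Leaving out 1 library at a time, the call of Arsa in Vancomycin-IP was lost in 7 of 8 fits (adjusted p up to 0.203) and that of Psap with the mix in 19 of 33 (adjusted p up to 0.116). Without the 12 last columns, the vancomycin average of Smpd1 was still called (0.61, adjusted p = 0.0268). The ampicillin averages of Smpd1 (0.32, adjusted p = 0.141) and Arsa (0.26, adjusted p = 0.136), the mix average of Psap (0.28, adjusted p = 0.0850) and the vancomycin averages of Ppt1 (0.57, adjusted p = 0.0531), Psap and Arsa were not. Asah1 (acid ceramidase) and Lipa (lysosomal acid lipase) were called in no comparison with PBS.

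The proton pump was read through 3 subunits. Atp6v1a, the catalytic subunit that binds ATP, stood at 53.0, 67.2, 44.7 and 77.7 TPM in the 4 PBS-IP libraries and at 99.3, 100.4, 84.0 and 81.0 TPM in the 4 Vancomycin-IP libraries, which did not overlap. It rose by 0.61 there (SE 0.16, adjusted p = 0.0116), by 0.45 averaged over the routes with vancomycin (SE 0.08, adjusted p = 0.00012) and by 0.27 with ampicillin (SE 0.08, adjusted p = 0.0197). Its averaged difference was 0.26 with metronidazole and 0.23 with neomycin, with adjusted p of 0.247 and 0.118. Atp6v1h, the regulatory subunit H, rose by 0.24 with vancomycin (SE 0.07, adjusted p = 0.0122), and Atp6v0d1, a subunit of the membrane sector, was called in no comparison. Without the 12 last columns the vancomycin average of Atp6v1a was still called (0.53, adjusted p = 0.0113), and its ampicillin average (0.22, adjusted p = 0.167) and the vancomycin average of Atp6v1h were not. Tfeb and Grn were likewise called in none; the group means of Tfeb ran from 20.8 TPM in Metronidazole-PO to 36.2 TPM in Neomycin-PO, and Grn, which is processed to granulins in the lysosome, was 0.22 higher with ampicillin (adjusted p = 0.0563).

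Where none or 1 of the 35 genes was called, the 3 with the smallest p were read. For ampicillin they were Atp6v1a (0.32), Tpp1 (0.69) and Ctsz (-0.50) in Ampicillin-PO, Smpd1 (0.72, adjusted p = 0.0819), Slc17a5 and Grn (0.34) in Ampicillin-IP, and Slc17a5, Ctsz (-0.48) and Ctsb (0.41) in Ampicillin-IV. For vancomycin they were Naglu (-0.46), Atp6v1h (0.22) and Ctsz (-0.38) in Vancomycin-PO, and Atp6v1a (0.53, adjusted p = 0.0618), Smpd1 (0.61) and Ppt1 (0.62) in Vancomycin-IV. For the mix they were Slc17a5, Gla (0.74) and Psap (0.34) in Mix-PO, Gusb (-0.47, adjusted p = 0.156), Psap (0.40) and Neu1 in Mix-IP, and Ctsb (0.50), Mcoln1 (-0.47) and Ppt1 (0.40) in Mix-IV. Several of these genes were also called in the averages, which use the same libraries. Metronidazole gave Grn (0.27), Mcoln1 (0.35) and Tfeb (-0.31) in Metronidazole-PO, Atp6v1a (0.49), Psap (0.52) and Lgmn (0.63) in Metronidazole-IP, and Ctsa (-0.39), Slc17a5 (0.44) and Scarb2 (0.37) in Metronidazole-IV. Its averages with the smallest p were Atp6v1a (0.26), Psap (0.26) and Lgmn (0.35), and the lowest adjusted p of the 4 metronidazole comparisons was 0.247.

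The Vancomycin-IP libraries held more smooth muscle RNA than their controls. The summed TPM of the 18 muscle markers ran from 59963 to 100916 in Vancomycin-IP and from 12365 to 21765 in PBS-IP, and 17 of the 18 rose with a median difference of 2.24. The colonocyte markers ran from 4910 to 16473 summed TPM against 28032 to 38423, with 2 of 15 called lower. Other lists moved as well without overlap: summed TPM was 4069 to 6971 against 1297 to 2552 for the fibroblast markers (9 of 16 higher), 1236 to 2495 against 736.3 to 869.5 for those of neurons and glia (6 of 20 higher), and 642.8 to 6631 against 8383 to 25268 for those of goblet cells (4 of 16 lower). The macrophage markers overlapped, at 344.5 to 609.6 against 281.0 to 421.9, with 1 of 16 called higher. The part of the fibroblast, neuron and goblet cell RNA in the results was not tested. In the average for vancomycin 17 of 18 muscle markers rose as well (median 1.26), and in that for ampicillin 0 of 18 were called at a median of 0.74. With the smooth muscle and distal Hox scores as covariates, 1 of the 8 genes was called in Vancomycin-IP (Psap, 0.52, adjusted p = 0.0301). There Ppt1 went from 0.82 to 0.17 and Tpp1 from 1.33 to 0.50. Because the muscle sums of Vancomycin-IP and PBS-IP did not overlap, this fit cannot tell drug and muscle content apart there. In the average for vancomycin 6 were called under that fit, among them Atp6v1a at 0.36, Ctsb at 0.45 and Smpd1 at 0.34. The shares of all genes called are not given for that fit or for the fits that left out libraries. Their counts are therefore not set against a share. Without the 12 last columns Vancomycin-IP has 1 library, and 0 of the 35 genes were called there, and 3 of 35 in the average for vancomycin, namely Atp6v1a at 0.53, Smpd1 at 0.61 and Tpp1 at 0.95. Single libraries also weighed on the Vancomycin-IP count, which was 5 without PBS-IP replicate 1, 4 without Vancomycin-IP replicate 1 and 2 without Vancomycin-IP replicate 2. Of the 8 fits that left out 1 library, the call was lost in 4 for Ppt1 (adjusted p up to 0.0749), in 3 each for Psap (0.0706) and Lgmn (0.0769), and in 1 each for Tpp1 (0.0530) and Atp6v1a (0.0501). Among all 18 groups, PBS-IP had the lowest mean TPM of Ctsb, Psap, Smpd1, Tpp1, Arsa, Atp6v1a and Lgmn. The lowest mean of Ppt1 was in Mix-IP. The PBS-IP libraries enter each IP comparison with PBS and each average against PBS. The part of this low control in the calls was not tested.

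Neomycin is the aminoglycoside of the series. Against PBS, 32 of the 35 genes had an averaged difference above 0, where 58.3% of all genes did, and the differences were small, with a median of 0.13. By route the count was 23 in Neomycin-PO (59.8% of all genes), 31 in Neomycin-IP (63.8%) and 24 in Neomycin-IV (45.8%). Averaged against the other single antibiotics, without PBS libraries, 20 of the 35 stood above 0, where 49.3% of all genes did. The part of the low PBS-IP control in these counts was not tested. In the average against PBS the 3 genes with the smallest p were Ctsb (0.39), Atp6v1a (0.23) and Ctsd (0.23, adjusted p = 0.204). In place of 0, 5 of the 35 were called with the smooth muscle and distal Hox covariates. These 3 were among them (Atp6v1a 0.22, adjusted p = 0.0350, Ctsd 0.24, adjusted p = 0.0425). Array weights gave 3 and a pseudocount of 10 gave 1. The share of all genes called, 2.34% in the main fit, is not given for these fits, so their counts are not set against it. Ctsb in Neomycin-IP ran from 344.1 through 540.3 to 601.1 TPM, and all 6 libraries lay above the 4 PBS-IP libraries, of which the highest stood at 336.5 TPM. The difference was 0.69 (SE 0.21), and it was not called (adjusted p = 0.145). In Neomycin-PO the smallest p was that of Atp6v1a (0.32, SE 0.13, adjusted p = 0.871), followed by Ctsd (0.29) and Tfeb (0.37). In Neomycin-IP Psap (0.35) and Atp6v1a (0.30) followed Ctsb, and in Neomycin-IV the 3 were Neu1 (1.28, SE 0.60, adjusted p = 0.644), Ctsb (0.40) and Tfeb (-0.42). The averaged Ctsb difference for neomycin was called with the smooth muscle and distal Hox covariates (0.38, adjusted p = 0.0192), and was not called without the 12 last columns (0.34, adjusted p = 0.268) or under quantile normalization (0.26, adjusted p = 0.536).

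Set against the mean of ampicillin, metronidazole and vancomycin of the same route, a comparison that uses no PBS library, neomycin averaged over the routes had 5 of 35 genes called, where 9.80% of all genes were. Ctsz was 0.43 higher (SE 0.11, adjusted p = 0.00661), at a mean of 190.2 against 144.9 TPM. Gla was 0.48 higher (SE 0.14, adjusted p = 0.0224), at 14.3 against 9.33 TPM. Neu1 was 0.88 higher (SE 0.27, adjusted p = 0.0330), at 351.3 against 219.8 TPM, and Asah1 was 0.39 higher (SE 0.13, adjusted p = 0.0410), at 124.8 against 91.3 TPM. Smpd1 was lower (-0.33, SE 0.09, adjusted p = 0.0171), at 23.4 against 29.6 TPM. Single libraries of all 5 genes overlapped between neomycin and the other drugs; Gla in Neomycin-IP ran from 8.70 through 15.1 to 36.1 TPM and in Ampicillin-IP from 6.95 through 7.55 to 18.6 TPM.

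In the same comparison 5 of 18 smooth muscle markers were lower (median -0.79) and 6 of 15 colonocyte markers higher (median 0.90). Their part in the 5 calls was not tested beyond the fit with covariates. Under that fit 1 of the 35 genes was called, and the 5 genes had differences of 0.23, 0.36, 0.39, 0.31 and -0.15 in the order given. The share of all genes called is not given for that fit or for the fits that left out single libraries, so their counts are not set against it. By single route 0 of the 35 genes were called (limma), where 0.0117% of all genes were called for PO, 1.15% for IP and 0.972% for IV. At an unadjusted p under 0.05 stood 1 of the 35 for PO (3.56% of all genes), 9 for IP (17.4%) and 6 for IV (17.4%). The smallest p of each route belonged to Tfeb in PO (0.35, SE 0.16, adjusted p = 1.00), Gla in IP (0.63, SE 0.24, adjusted p = 0.236) and Ctsz in IV (0.53, SE 0.19, adjusted p = 0.191). The next were Mcoln1 (0.34) and Ctsz (0.32) in PO, Naglu (0.38) and Asah1 (0.53) in IP, and Smpd1 (-0.43) and Ppt1 (-0.46) in IV. The count of 5 in the average ran from 2 to 14 when single libraries were left out: it was 14 without Neomycin-PO replicate 2, 13 without Neomycin-IP replicate 5 or Vancomycin-IV replicate 1, 9 without Neomycin-PO replicate 6 and 2 without Neomycin-PO replicate 5. Over these 64 fits the call of Asah1 was lost in 14 (adjusted p up to 0.0988), that of Neu1 in 10 (0.0738), that of Gla in 2 (0.0546) and that of Smpd1 in 1 (0.0502).

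**Figure D4:**
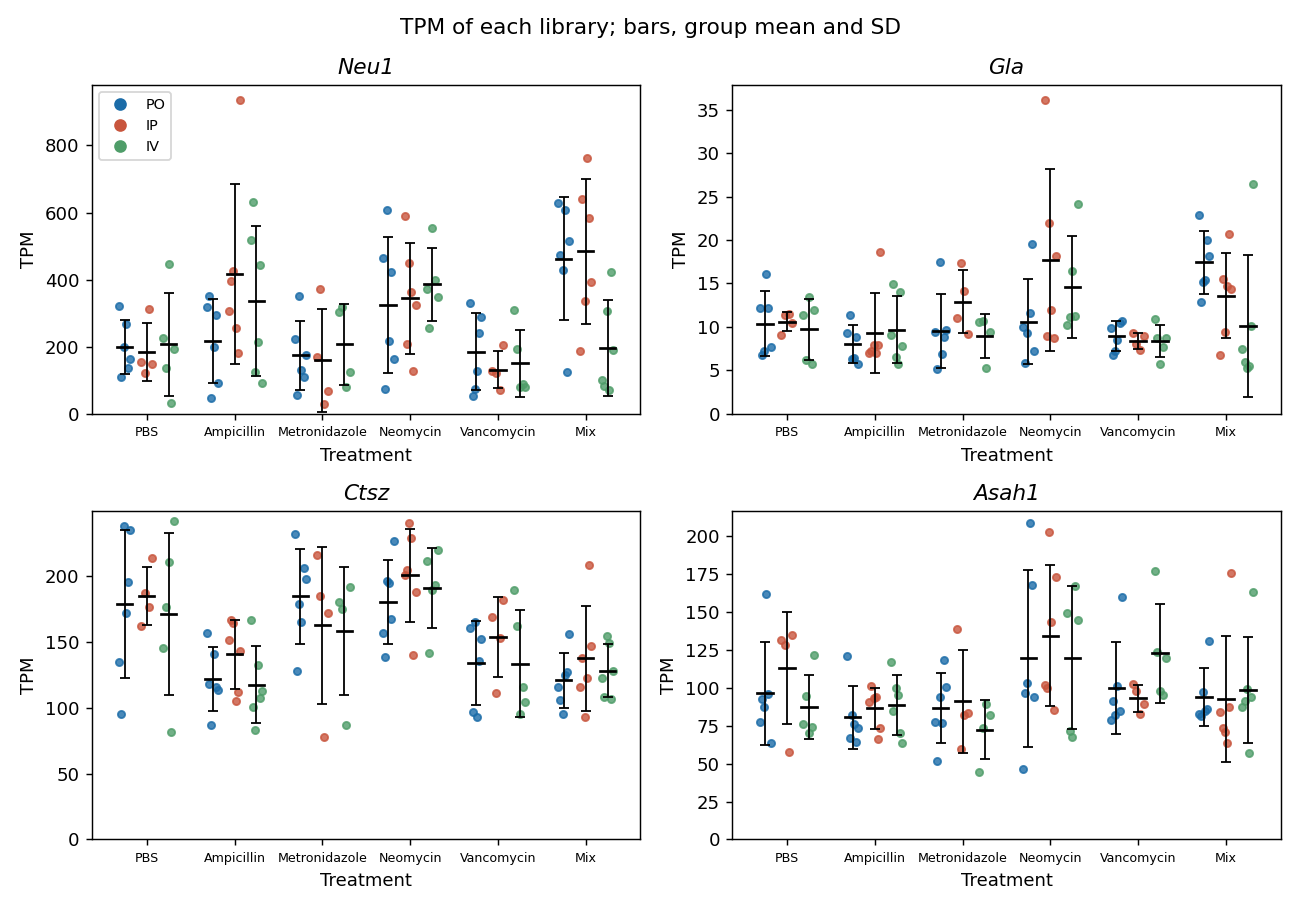
TPM of every library for Neu1, Gla, Ctsz and Asah1 by treatment and route (colours); horizontal bars are group means and whiskers the SD of 4 to 6 libraries. Neomycin means are above those of ampicillin, metronidazole and vancomycin in the averages (for example Ctsz, 190.2 against 144.9 TPM), with overlapping single libraries.

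Whether a drug's difference from PBS depended on the route was tested directly. Limma's F test of equal differences called 0 of the 35 genes for each of the 5 treatments, and 0 for equal levels of PBS over the routes; the share of all genes called was 0.0878% for neomycin and 0% for the others. At an unadjusted p under 0.05 stood 1 gene, Tfeb, for neomycin (2.44% of all genes), 4, Smpd1, Psap, Ppt1 and Tpp1, for vancomycin (6.60%), 2, Slc17a5 and Mcoln1, for the mix (2.38%), and 0 for ampicillin (1.41%), metronidazole (0.913%) and PBS (2.26%). Slc17a5 with the mix averaged 57.5 TPM PO, 35.7 TPM IP and 28.3 TPM IV, with an unadjusted p of 0.0256 and an adjusted p of 1.00. The call of Slc17a5 in Mix-PO is therefore not shown to be particular to the oral route.

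Within groups the 35 genes did not vary as 1 set. Over the 595 pairs of genes, the Pearson correlation across 97 libraries, after subtracting group means, had a median of 0.14. It was above 0.5 in 117 pairs and below 0 in 233. Pairs of genes outside the 35 were not examined. Hexa, which encodes the alpha subunit of beta-hexosaminidase, and Glb1, which encodes beta-galactosidase, were the closest pair at r = 0.94, and Neu1 and Ppt1 the most opposed at r = -0.83. Of the 35 correlations with the smooth muscle score, 11 were positive and 19 negative at an adjusted permutation p under 0.05. Others were near 0, such as those of Asah1 (r = -0.03), Ctsl (-0.09) and Psap (0.09). Ppt1 (r = 0.89, rho = 0.88), Smpd1 (0.80, 0.80), Tpp1 (0.79, 0.76) and Gaa (0.74, 0.75) rose with muscle, and Glb1 (r = -0.84, rho = -0.86), Hexa (-0.79, -0.80), Neu1 (-0.76, -0.78), Ctss (-0.73, -0.73) and Lamp1 (-0.72, -0.75) fell with it. Each of these had a permutation p of 1e-05, the smallest that 100000 resamples can give, and 2.64e-05 after adjustment over 140 correlations of 35 genes with 4 scores. Leaving out the 2 libraries farthest from the median score changed the r of Ppt1 to 0.87 and that of Glb1 to -0.85.

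With the colonocyte score Ctss had the highest correlation (r = 0.89, rho = 0.87), and Ppt1 the lowest (r = -0.73, rho = -0.68). With the distal Hox score Scarb2 was the lowest (r = -0.82, rho = -0.82), and Ctsh, a cathepsin with aminopeptidase activity, the highest (r = 0.65, rho = 0.66). The macrophage score went most closely with the beta-glucuronidase Gusb (r = 0.66, rho = 0.65) and with Ctsh (r = 0.57, rho = 0.58); all of these had the same permutation p. The genes share libraries and TPM sums to a constant in each, so these correlations describe how the tissue samples differ.

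**Figure D5:**
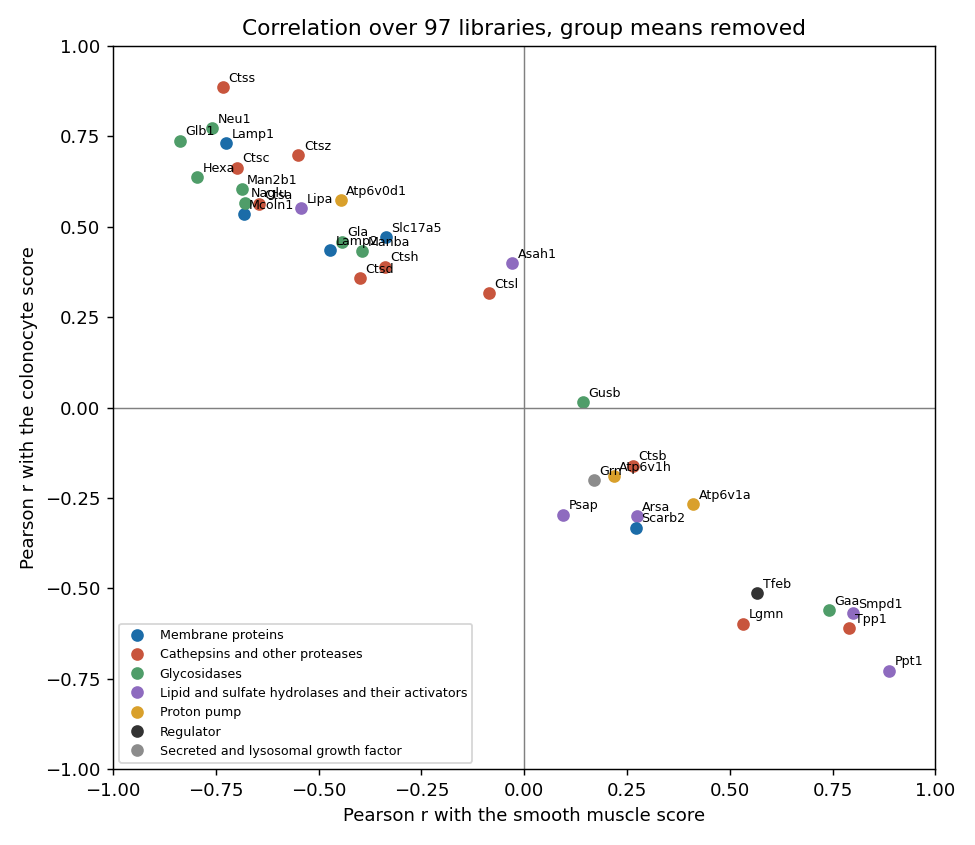
Pearson r of each of the 35 genes with the smooth muscle score (x axis) and the colonocyte score (y axis) across 97 libraries after subtracting group means, coloured by role. Genes spread from the upper left (Ctss, -0.73 and 0.89) to the lower right (Ppt1, 0.89 and -0.73).

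Other genes of lysosome biology were read from lists, and their counts stand beside the shares of all genes called, which were 26.0% for vancomycin, 7.96% for the mix, 7.88% for ampicillin, 2.34% for neomycin and 0.398% for metronidazole. Of 47 further lysosomal genes 13 rose and 2 fell with vancomycin averaged over the routes, 5 rose with the mix, 2 rose with ampicillin and 1 with neomycin, and 0 were called with metronidazole. The examples with the largest change were Epdr1 (1.03) and Acp2 (0.73), an acid phosphatase, for vancomycin, the cholesterol exporter Npc1 (0.44) for the mix, the membrane protein Laptm4b (0.43) for ampicillin and the nucleoside transporter Slc29a3 (0.35) for neomycin. Of 17 further proton pump genes, Atp6ap1, an accessory subunit, rose with ampicillin (0.48), vancomycin (0.57) and the mix (0.41), and for vancomycin Atp6v1c1 (0.47) and Atp6v1b2 (0.31) rose too. Of 22 genes of delivery to the lysosome, 5 rose with vancomycin, including the late endosomal GTPase Rab7 (0.69), 2 with the mix and 1 with ampicillin; Cln8, which encodes an exit receptor for newly made lysosomal enzymes in the endoplasmic reticulum, was called in each of these.

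The next counts are read against the same shares, 26.0% for vancomycin, 7.96% for the mix, 7.88% for ampicillin and 2.34% for neomycin. Of 20 genes of the TFEB family and mTORC1, 6 rose and 3 fell with vancomycin, 2 rose with the mix and 1 with ampicillin; Tfe3, the closest relative of Tfeb among them, rose with ampicillin (0.31) and the mix (0.30). Of 24 autophagy genes, 10 rose with vancomycin, 6 with ampicillin and 3 with the mix, led by Gabarapl1 (0.89) for vancomycin. Of 17 genes that respond to lysosome damage, 5 rose with vancomycin, 4 with the mix and 1 with ampicillin. With neomycin 1 rose, and it was Lgals9, which encodes galectin-9, a lectin that binds glycans exposed by damaged lysosomes and that interferon also induces. Averaged over the routes, its mean was 56.6 TPM with PBS and 147.1 TPM with neomycin, a difference of 1.27 (SE 0.20, adjusted p = 5.14e-06). It was 1.60 higher than with the other single antibiotics (SE 0.16, adjusted p = 3.82e-13). By single route limma called Lgals9 in Neomycin-IP (1.77, 191.3 against 56.5 TPM) and Neomycin-IV (1.67, 180.8 against 63.9 TPM), and not in Neomycin-PO. Another galectin gene of the list, Lgals1, was lower than with the other single antibiotics (-0.84, SE 0.26, adjusted p = 0.0336). In the same neomycin average 19 of 20 interferon-induced genes rose with a median of 1.24, and their part in the Lgals9 result was not tested.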

How the data were processed

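The authors deposited one table of TPM (length-scaled transcript abundance, summing to the same total in each library) per gene for 97 libraries. Per the submitters' processing notes, Trim Galore 0.6.2, cutadapt 3.5 and Salmon (version not given) were used with the mouse assembly GRCm39; per the labels' protocols, poly(A) RNA was selected from 1000 ng and read for 75 cycles. TPM carries no sequencing depth, which is unknown here, and because each library sums to a constant a rise of some genes lowers others.

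Here log2(TPM + 1) of the 17083 genes at 1 TPM or more in at least 4 libraries was fitted with limma 3.58.1 (R 4.3.3, trend and robust) in one model of 18 groups, with Benjamini-Hochberg adjustment over all genes within each comparison. There were 15 comparisons with PBS of the route, 5 averages over 3 routes, 4 of neomycin with the other single antibiotics and 6 F tests. Fold changes are on the log2(TPM + 1) scale and understate those of low genes. The scripts were tested on simulated data. Marker scores are means of log2(TPM + 1) over a list; correlations used Python 3.11.15 and SciPy 1.17.1.

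The members and lists were chosen with earlier results of these data known. Named are all members called in a comparison (the 8 largest changes where more are called), or the 3 with the smallest p where fewer than 2 are called, and up to 4 genes of other lists. Same-numbered libraries did not pair: in 0 of 15 comparisons did every same-numbered pair correlate above 0.1. Alternatives were another pseudocount, no filter, quantile normalization, array weights, covariates, a replicate block, fits of the compared groups alone and leaving out libraries.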

Additional observations from a re-analysis of the deposited data

Results flagged for a closer look

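In 18 pairs of a gene and a group, those behind the main calls, 2 libraries stood apart from the rest of their group by Dixon's criterion, where chance flags about 1 in 20. In PBS-IP, replicate 3 had 258.7 TPM of Ctsb and the nearest of the other 3 libraries 335.3 TPM. In Mix-PO, replicate 5 had 37.4 TPM of Slc17a5 and the nearest library 56.0 TPM. The low PBS-IP library enters the comparisons of Ctsb in Vancomycin-IP and Neomycin-IP as a control.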

How the results depend on the processing

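Of the 30 counts of called genes, all kept within 1.5 times without the filter on low values and with a replicate block; the block gave 8 for ampicillin over the routes, where the main count was 7, and since the numbers did not pair the libraries (median correlations from -0.41 to 0.41; 15 of 74 libraries correlated best with their own number) it is given here only. A pseudocount of 10 gave 1 for neomycin, quantile normalization 0 for Mix-PO, and fitting the compared groups alone 3 for the mix, each of the first and last averaged over the routes.

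Array weights gave 5 in Ampicillin-PO, 5 in Ampicillin-IP, 2 in Neomycin-IP, 18 in Vancomycin-IP, 10 in Vancomycin-IV, 9 in Mix-PO, 13 in Mix-IP and 1 in Mix-IV, and 3 for neomycin, 22 for vancomycin and 17 for the mix over the routes. Against the other single antibiotics they gave 13 in Neomycin-IP, 1 in Neomycin-IV and 21 over the routes, and for equality over the routes 3 with vancomycin and 5 with the mix. The smooth muscle and distal covariates gave 4 in Ampicillin-IP, 1 in Ampicillin-IV, 1 in Vancomycin-IP and 1 in Vancomycin-IV, and over the routes 11 for ampicillin, 5 for neomycin, 6 for vancomycin and 1 for neomycin against the other antibiotics. Adding the macrophage score gave 4, 1, 3 and 2 in those 4 groups, 1 in Neomycin-IP, and over the routes 5 for neomycin, 7 for vancomycin and 1 for neomycin against the others. Without the 12 last columns the counts were 0 in Vancomycin-IP and, over the routes, 1 for ampicillin, 3 for vancomycin, 1 for the mix and 10 for neomycin against the others. The cause was not tested. The shares of all genes called that stand in the results belong to the main fit. They are not given for these alternatives, so no count in this section is set against its share.

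Leaving out 1 library at a time gave 2 to 8 in Vancomycin-IP, 0 to 3 in Vancomycin-IV, 0 to 1 in Mix-PO, 0 to 1 in Mix-IP, and over the routes 6 to 8 for ampicillin, 0 to 1 for neomycin, 9 to 13 for vancomycin, 2 to 6 for the mix and 2 to 14 for neomycin against the others. The other counts stayed at 0. The libraries behind the moves were PBS-IV replicate 4 (2) and Vancomycin-IV replicate 1 (3) for Vancomycin-IV, and Mix-IP replicate 6 (1) for Mix-IP. For the mix over the routes the count of 5 became 2 without PBS-IV replicate 5, and 3 without replicates 1, 2 or 4 of Mix-IP or Mix-IV, 2, 3 or 4 of Mix-PO, 1 or 2 of PBS-IP, 2 of PBS-IV or 4 of PBS-PO. For neomycin against the others it was 3 without replicates 1, 3 or 4 of Neomycin-IP, 3 or 4 of Neomycin-IV, 3 of Neomycin-PO or 3 of Metronidazole-IP. No named gene changed direction. TPM carries no depth, so counting error is unknown, and groups of 4 to 6 libraries limit what could be called.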
